A study of Mus musculus with 2 samples.

Results

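In mouse erythroid cells, 408 accessible regions lay at CpG-poor main promoters. A main promoter was taken here as the most upstream start of a protein-coding gene in GENCODE M21 on mm10 (GRCm38), and it was called CpG-poor where the CpG dinucleotides, from 1 kb before to 1 kb after the start, numbered under 0.35 of those expected from the content of C and G. A region belonged to the set where its strongest summit lay within 1 kb of the main start of exactly 1 protein-coding gene. The set made up 2.03% of the 20080 regions of the reproducible list and 5.67% of the 7199 regions at the main start of 1 gene. It stood at 390 genes, of which 18 had 2 regions each. The other 6791 main promoter regions, with ratios of 0.35 or more, served for comparison. Regions near more than 1 main start were left out, and 19 of those had a CpG-poor start among them.

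The assay was ATAC-seq, in which a transposase cuts accessible DNA and tags the cut ends for sequencing. The cells were G1E-ER4, a cultured line labelled as male, of strain C57BL/6J and as erythroid cells with Gata1 restored. The parental cells lack Gata1, which encodes the master regulator of red cell maturation, and the line carries GATA1 fused to the hormone-binding part of the estrogen receptor, so that estradiol switches it on. Both libraries, biological replicates 1 and 2, came from 50000 cells held for 24 h in 17beta-estradiol at 10 nM. Without an untreated group, the values show where chromatin was accessible after treatment and not what estradiol changed. The labels say nothing further about the cultures, and the spread between the libraries may be partly technical. Read depth was not known, and the libraries' own lists held 14012 and 15564 regions.

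Most mammalian promoters lie in CpG islands, which keep their CpGs because they are unmethylated, and these tend to be open in many cell types. CpG-poor promoters are typical of genes used in few tissues, and their opening usually depends on factors particular to those tissues. In red cell precursors the main such factors are GATA1, the E-box protein TAL1, which binds beside it in a complex, and KLF1, which binds the CACCC box of globin and red cell membrane genes.

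The sequences below are from members of the red cell and megakaryocyte lists and show GATA motifs and CACCC boxes in front of the starts. E-boxes are not marked in them, so the lower case letters may hold one. Each is from the RefSeq genome, build mm10 (GRCm38), and is written 5′ to 3′ on the gene's own strand. Each covers the bases from 100 bp before to 100 bp after the summit, less those after the start. Capitals mark matches to the GATA motif (AGATAA, with T also allowed as its first base and G as its last), to the CACCC box (CCACCC or CACACCC) and to the letters CCAAT. They also mark the TATA box, on the sense strand only and 20 to 45 bp before the start (TATAAA or TATAAG and likewise TATATA). The other motifs were read on both strands, so the GATA motif also appears as TTATCT or TTATCA, the CACCC box as GGGTGG and CCAAT as ATTGG. The stretches are Hba-a2 (an alpha globin gene) at chr11:32296291-32296488 on the plus strand, Nfe2 (subunit of the factor NF-E2) at chr15:103258404-103258589 on the minus strand, and Trim10 (a tripartite motif protein of maturing red cells) at chr17:36869391-36869573 on the plus strand. They are followed by Kel (a blood group protein) at chr6:41704340-41704451 on the minus strand, Rhag (an ammonia channel of the Rh complex) at chr17:40811022-40811125 on the plus strand, and Rgs18 (a signalling regulator of platelets) at chr1:144775436-144775620 on the minus strand. Trim10, Kel and Rhag were added to the set after their motifs were seen.
Hba-a2: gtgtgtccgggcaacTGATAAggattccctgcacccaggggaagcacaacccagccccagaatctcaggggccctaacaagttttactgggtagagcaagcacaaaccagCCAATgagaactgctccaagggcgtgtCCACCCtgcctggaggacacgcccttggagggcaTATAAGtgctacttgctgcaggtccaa
Nfe2: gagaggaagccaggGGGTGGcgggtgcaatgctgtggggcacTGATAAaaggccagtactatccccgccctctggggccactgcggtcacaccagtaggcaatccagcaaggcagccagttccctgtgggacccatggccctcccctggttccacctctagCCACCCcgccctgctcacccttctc
Trim10: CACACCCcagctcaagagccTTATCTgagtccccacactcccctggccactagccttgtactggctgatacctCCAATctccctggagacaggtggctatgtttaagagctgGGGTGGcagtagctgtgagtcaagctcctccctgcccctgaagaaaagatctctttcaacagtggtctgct
Kel: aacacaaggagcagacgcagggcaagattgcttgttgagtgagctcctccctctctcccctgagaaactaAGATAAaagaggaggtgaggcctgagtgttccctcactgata
Rhag: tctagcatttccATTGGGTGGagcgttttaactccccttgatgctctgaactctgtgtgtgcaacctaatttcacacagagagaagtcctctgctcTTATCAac
Rgs18: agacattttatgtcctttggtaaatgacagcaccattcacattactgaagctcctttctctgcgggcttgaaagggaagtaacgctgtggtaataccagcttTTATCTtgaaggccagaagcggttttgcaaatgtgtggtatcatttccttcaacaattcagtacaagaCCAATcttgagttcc

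In Hba-a2 the GATA motif began 183 bp before the start, and it was followed by the CCAAT letters at 88 bp, by a CACCC box at 61 bp and by the TATA box at 27 bp. Nfe2 had a GATA motif 144 bp before its start, between CACCC boxes at 172 and 25 bp. Trim10 opened its stretch with a CACCC box at 183 bp and a GATA motif at 163 bp, and the stretch had no CG dinucleotide at all. In Kel and Rhag the GATA motif lay closer, 42 and 8 bp before the start. The Rgs18 motif, on the opposite strand, began 83 bp before the start. A match is a run of letters and not a measured binding site.

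For contrast, Zfp994 (a zinc finger gene, chr17:22225617-22225759, minus strand) was the strongest member among genes with a Zfp symbol and Cd37 (a leukocyte tetraspanin, chr7:45239116-45239243, minus strand) the strongest of the leukocyte list. Neither stretch had a GATA motif. Capitals here mark CCAAT, the GC box (GGGCGG) and the ETS core (AGGAAG or CGGAAG). Zfp994 had ATTGG and GGGCGG overlapping at 136 and 133 bp before its start and CCAAT at 77 bp, and Cd37 had a GC box at 30 bp.
Zfp994: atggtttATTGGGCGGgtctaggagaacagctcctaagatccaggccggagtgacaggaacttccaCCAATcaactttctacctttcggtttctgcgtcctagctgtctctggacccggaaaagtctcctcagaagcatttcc
Cd37: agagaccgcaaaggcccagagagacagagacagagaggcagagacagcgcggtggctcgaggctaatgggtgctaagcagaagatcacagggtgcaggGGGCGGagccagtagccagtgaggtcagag

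Accessible main promoters were rare among CpG-poor genes. Of 8573 genes with such a main promoter, 390 had a member region, or 4.55% (95% Wilson interval 4.13 to 5.01%). Of the 13280 other genes, 46.1% had a region at the main start (45.3 to 47.0%). The difference was -41.6 points (95% Newcombe interval -42.5 to -40.6). These and all later intervals cover counting error only, since genes and regions are not replicates and many belong to families of like sequence. In the libraries' own lists the share was 3.63% ± 0.148 (SD, n = 2) for CpG-poor and 42.7% ± 0.900 for other main promoters, so the gap was far larger than the spread between libraries. Counting any region within 1 kb, those shared between neighbouring genes included, gave 4.90% against 61.6%. In the looser list of replicated peaks, 8.13% of CpG-poor main promoters had a region.

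The share was higher at higher CpG ratios. None of the 256 promoters with a ratio below 0.05 had a region. The share was 1.54% at ratios of 0.10 to 0.15, 4.93% at 0.20 to 0.25 and 14.8% at 0.30 to 0.35, just below the limit. Just above it, at 0.35 to 0.40, the share was 21.8%, and it reached 49.1% at 0.60 to 0.65. It then stayed between 48.2% and 49.9% up to a ratio of 0.80 and was between 53.2% and 58.2% from there to 1.00. The level stretch below 0.80 was seen for regions at the main start of 1 gene. With any region within 1 kb counted, those shared between neighbouring genes included, the share still rose there. It was 68.6% at 0.65 to 0.70 and 72.9% at 0.75 to 0.80. The limit of 0.35 thus falls on a slope and separates no distinct classes. Members closest to it were Lmna (ratio 0.3495), Alkbh8 (0.3496) and Mfsd2b (0.3497), and the nearest regions outside were those of Cirbp (0.3502), Nr6a1 (0.3508) and Akr1b10 (0.3517). For the distance of 1 kb, the outermost members were Prodh, with its summit 978 bp from the start, Col1a1 at 972 bp and Serpinb1a at 967 bp, and the first outside were those of Tfr2 at 1009 bp, Bbc3 at 1013 bp and Sod2 at 1016 bp.

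**Figure D1:**
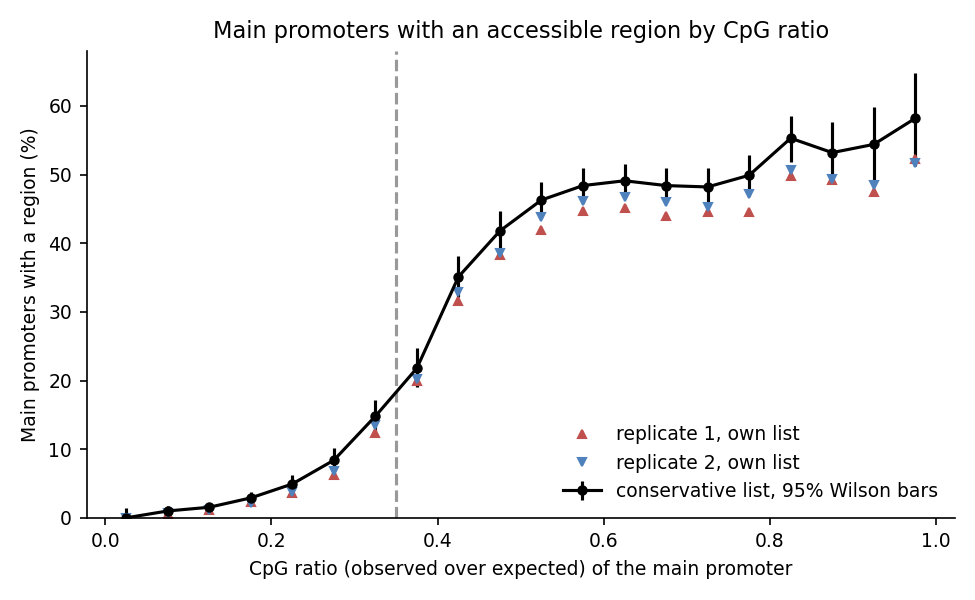
Share of main promoters with an accessible region (vertical axis, %) by CpG ratio (horizontal axis, observed over expected CpG in steps of 0.05). Black points are the reproducible list with 95% Wilson bars, triangles are the own lists of replicates 1 and 2, and the dashed line marks 0.35, where the share passes from 14.8% to 21.8% between neighbouring steps.

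The families of CpG-poor genes differed widely in how many were accessible. Of 1131 olfactory receptor genes, which encode odorant receptors of the nose, 2 had a region (0.177%), namely Olfr763 and Olfr9, whose regions are 93.2% alike by shared 12 bp words, so that reads of one may be placed at the other. In the whole set 14 members were over 50% alike to another member by this measure, and how reads were placed there is not known. None was found at 330 vomeronasal receptor, 64 defensin or 42 keratin genes, nor at 61 genes of interleukins and their receptors or 42 of chemokines and their receptors. Zinc finger genes with a Zfp symbol, most of which encode DNA-binding proteins of large tandem clusters, had a region at 32 of 99 CpG-poor main promoters (32.3%, interval 23.9 to 42.0%), and at 64.7% of the 295 with a higher ratio. Tripartite motif genes had 6 of 35 (17.1%) and solute carriers 6 of 120 (5%). Without the olfactory, vomeronasal, Gm and Rik symbols the share over all CpG-poor main promoters was 6.22%.

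Against the background of 4.55%, the share of genes with a region was higher in most red cell lists. Of the CpG-poor genes in each list, a region stood at 4 of 9 globin genes (44.4%), 11 of 16 red cell membrane and surface genes (68.8%), 4 of 7 erythroid transcription factors (57.1%) and 5 of 11 erythroid receptor, signalling and maturation genes (45.5%). In the own lists of replicates 1 and 2 the counts were 3 and 4 for globin genes, 9 and 8 for membrane genes, 3 and 3 for transcription factors, and 5 and 3 for the receptor, signalling and maturation genes. None stood at the 12 CpG-poor genes of heme synthesis and iron transport, for which the Wilson interval reaches up to 24.2%, although 1 of them had a region in the own list of replicate 2. This count depends on the 1 kb limit, since Tfr2 and Fech of this list had summits just outside it, 1009 and 1067 bp from the start. The next nearest were those of Steap3 at 1612 bp, Fth1 at 1979 bp and Slc11a2 at 2016 bp, and the farthest that of Abcg2 at 56.1 kb. Of the 26 heme and iron genes with a higher ratio, 21 had a region. Megakaryocyte genes had 6 of 28 (21.4%) and general leukocyte genes 10 of 78 (12.8%), while neutrophil, monocyte and macrophage genes had 2 of 62 (3.23%). Lists of other cells held few or no members, with 0 of 29 mast cell, 0 of 45 lymphocyte and 0 of 25 liver genes. The muscle and epithelium lists had 1 member each, Ryr1 and Muc1, and across the red cell lists 24 of 55 CpG-poor genes had one.

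The alpha and beta globins of adult red cells were all accessible. Hba-a2 had a signal of 14.5 in the reproducible list, where signal is the authors' enrichment value per peak, and 13.3 and 12.4 in the ranked lists of replicates 1 and 2. Hba-a1 had 11.2, with 9.47 and 10.9 in the replicates. The regions of these genes are 97.3% alike, so their levels cannot be fully separated. The beta globins Hbb-bs and Hbb-bt had 9.69 (10.1 and 8.57) and 6.61 (7.33 and 7.01). The embryonic and theta-like genes Hba-x, Hbb-y, Hbb-bh1, Hbb-bh2 and Hbq1a had no region at their CpG-poor main starts. The other theta-like gene, Hbq1b, had a region 46 bp before its start but was no member, with a ratio of 0.398.

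The membrane list held the strongest red cell member, Epb42, which encodes protein 4.2 of the red cell skeleton. Its signal was 16.4, with 12.7 in replicate 1 and 15.4 in replicate 2, and its summit lay 266 bp inside the gene, in an exon. The GATA motif there was AGATAG, in the stretch chr2:121036779-121036808 on the minus strand, shown to place this site downstream of the start.
Epb42: agctggcctaggAGATAGcagcagggaggg

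Cd47, the signal that spares red cells from macrophages, had 13.2 (12.7 and 12.9), and the adhesion receptor Cd44 had 11.2 (10.3 and 9.34). Below them came Kel at 9.03 (7.94 and 8.73) and the erythroblast surface protein Ermap at 7.93 (7.62 and 7.79). The anion exchanger gene Slc4a1, or band 3, had 7.54 (7.70 and 6.09). Rhag stood at 7.35 (6.93 and 7.08). Tspo2, a cholesterol-binding protein of erythroblasts, had regions of 7.89 and 5.55. The carbonic anhydrase gene Car1 at 5.85 (5.09 and 5.74) and the potassium channel gene Kcnn4 at 3.56 (3.49 and 3.64) passed in neither library's own list, and Kcnn4 was the weakest of the list. All membrane regions named here but those of Epb42 and Cd47 were below the members' median of 11.5.

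Among transcription factor genes, Nfe2 had 12 (12.3 and 10.9) and Lyl1, a relative of Tal1, had 9.36 (9.16 and 7.77). Klf1, the factor of the CACCC box, had 7.13 (6.07 and 6.39) with its summit 629 bp before the start, and Cbfa2t3, a corepressor in the TAL1 complex, had 7 (6.39 and 6.07). Among receptors and maturation genes, Trim10 had 13.7 (11.8 and 13.5). Epor, the erythropoietin receptor, had 2 regions, a stronger one of 12.3 (12.1 and 10.1) 895 bp inside the gene and a weaker one of 6.14 (4.88 and 6.20) 146 bp before its start. Fn3k, a kinase that repairs glycated proteins, likewise had 10.9 at the start and 6.06 farther upstream. Ctse, a protease of red cells, had 8.47 (6.85 and 8.59), and Cldn13 had 6.38 (6.97 and 5.53).

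**Figure D2:**
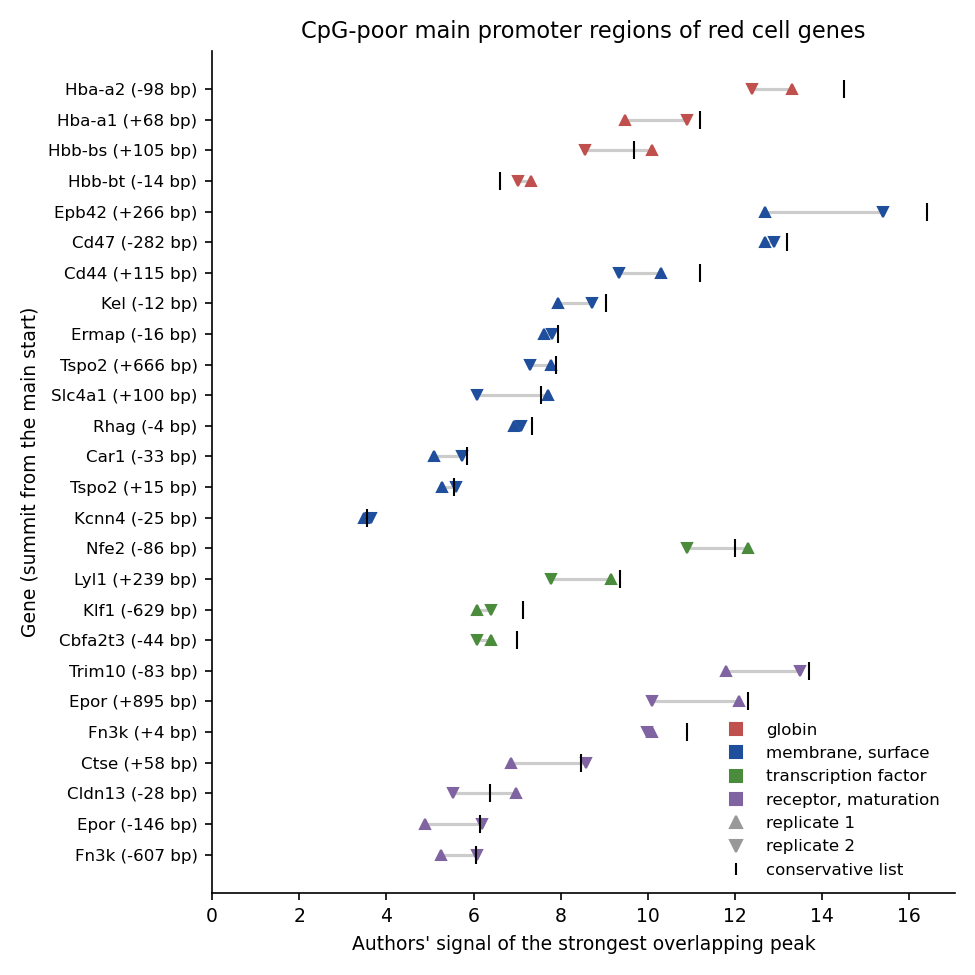
Authors' signal (horizontal axis) of the member regions of the red cell lists that are reported by name, 1 row per region, with the distance of the summit from the main start in brackets. Triangles are the strongest overlapping peak in each replicate's ranked list, ticks the reproducible list and colours the list, and values run from 3.56 at Kcnn4 to 16.4 at Epb42.

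Megakaryocyte members, from the sister lineage of the red cell, were Rgs18 at 15.6 (13 and 14.0), the ATP receptor P2rx1 at 11.9 (10.2 and 9.64), the platelet tubulin Tubb1 at 11.3 (11.2 and 11.1), integrin alpha IIb, Itga2b, at 9.93 (8.04 and 8.56), the von Willebrand factor receptor chain Gp1ba at 9.07 (7.49 and 8.56) and platelet factor 4, Pf4, at 8.36 (7.5 and 7.39). Leukocyte members included Cd37 at 13.4 (12.3 and 11.4), Samsn1 at 12.1 (11.2 and 11) and Itga4 at 9.27 (8.94 and 9.38). The 2 myeloid members were Spi1, which encodes PU.1, at 8.66 (8.14 and 6.68) and Clec4e at 5.26. Both were in neither library's own list, as was the stem and progenitor member Runx1 at 5.31 (5.04 and 4.96). The libraries were made from whole cultures, so fewer open cells and less opening per cell cannot be told apart.

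Some genes of the red cell lists without a member had a weaker region. Of 31 such CpG-poor genes, 6 had a region of the looser replicated list within 1 kb (19.4%), against 343 of 8183 for all CpG-poor genes without a member (4.19%). They were Alas2, the first enzyme of red cell heme synthesis, the transferrin receptor gene Tfr2, the blood group gene Rhd, the transcription factor genes Gfi1b and Lmo2, and Pklr, the red cell pyruvate kinase. General leukocyte genes gave a like share, 14 of 68 (20.6%), and lymphocyte genes 3 of 45 (6.67%).

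Members were somewhat weaker than other main promoter regions. Their median signal was 11.5, with quartiles of 8.68 and 16.1 and a range of 2.91 to 29.4, against 13.4 (9.75 and 16.9, range 1.92 to 30.2). Among those others the median was 14.3 at ratios of 0.35 to 0.6 and 12.9 at 0.6 or more, so it did not rise steadily with the ratio. The median over the whole list was 10.7, and over 10583 distal regions it was 9.36. By the strongest overlapping peak in each library's ranked list, medians were 9.86 against 11.7 in replicate 1 and 10.2 against 12.1 in replicate 2, a difference of -1.88 in each. The ranges of the classes overlapped almost wholly. When the main promoter regions were divided by strength into 10 equal groups, members made up 3.75% to 8.89% of each, and 22 of the 250 strongest were members. Members were also narrower, with a median of 498 bp against 608 bp.

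None of the 12 strongest members was in any of the 16 gene lists. Zc4h2, a zinc finger gene of neural development, led with 29.4 (22.7 and 26.8), followed by Gm20594 and Gm49359 at 28.2 each. Trim21, an antibody receptor inside the cell, had 27.9 (24.2 and 24.6). Then came Zfp994 at 27.0 (22.7 and 24.5), Zfp97 at 26.2, Tnfaip8l1 at 25.8, Zfp93 at 25.1, the small GTPase gene Arl5b at 24.6, the mitochondrial transcription factor gene Mterf2 at 24.4, and Alkbh6 and 2010315B03Rik at 24.2 each. All 12 passed in both libraries' own lists, 11 had the summit within 200 bp of the start, 9 had no distal region within 50 kb (35.3% of all members and 35.4% of other main promoter regions had none) and none had a GATA motif around the summit (Wilson interval up to 24.2%). The 5 weakest were Arhgef2 at 2.91, Kcnn4 at 3.56, Arhgdib at 4.52, Elovl1 at 4.53 and Baz2a at 4.83. Of these, all but Kcnn4 were 1 of 2 regions at the same gene.

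Fewer members than other main promoter regions passed separately in both libraries. A region was called in a library where it overlapped a region of that library's own list by at least 50% of the shorter. By that rule 272 members were called in both (66.7%), against 82.6% of the others and a background of 81.7% of all main promoter regions. The difference from the others was -15.9 points (Newcombe interval -20.7 to -11.4). Over the whole list, distal regions included, the share called in both was 60.7% (60.0 to 61.4%). A further 7.35% of members were called in replicate 1 only, 11% in replicate 2 only and 61 members (15%) in neither. Members in both lists had a median signal of 14.2 and those in neither 7.65. Among the stronger of the latter were Ect2l at 10.5, and Gm6710, Col1a1 and Cela1 at 10.2 each.

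Most summits of members sat close to the start. In all, 297 members (72.8%, interval 68.3 to 76.9%) had the summit within 200 bp, against 73.6% of other main promoter regions, a difference of -0.803 points (-5.44 to 3.42). Of those others, the ones with ratios of 0.35 to 0.6 had 78.5% (76.8 to 80.0%) and the ones at 0.6 or more 70.7%. In the libraries' own lists the share was 74.4% ± 0.572 (SD, n = 2). The median position was 24 bp before the start, against 36 bp, and 61.0% against 67.1% lay upstream (difference -6.07 points, -11 to -1.33). By annotation of the gene itself, 244 summits (59.8%) lay outside the gene, 118 (28.9%) in an exon and 46 (11.3%) in an intron. For other main promoter regions these shares were 64.2%, 24.9% and 10.9%. The members within 200 bp were stronger, with a median of 12.1, than the 111 farther away, with 10.2. Of 141 members whose gene has another coding start more than 1 kb away, 35 also had a region there, as at Arl5b, Cd47 and Nfe2. These 35 were 8.58% of all members, against 4.64% of other main promoter regions (difference 3.94 points, 1.54 to 7.09).

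Around the summit, members more often held blood cell motifs than other main promoter regions did. A GATA motif was present, from 100 bp before to 100 bp after the summit, in 31.9% of members (interval 27.5 to 36.5%) and 10.5% of the others, a difference of 21.3 points (17.0 to 26.1). The share was 33.0% over the whole list and 50.9% in distal regions. In the libraries' own lists it was 32.7% ± 1.78 for members and 10.2% ± 0.299 for the others (SD, n = 2), a gap wider than the spread between libraries. The composite of E-box and GATA, here CTG followed after 7 to 9 bases by AGATA or TGATA, was in 9.31% against 1.52%, and in 18% of distal regions. The CACCC box was in 44.4% against 32.9% (difference 11.4 points), and in 32.7% of distal regions. The E-box (CANNTG) was in 60.0% against 44.9%, the RUNX motif (TGTGGT) in 15.9% against 7.73%, the PU.1 type of ETS motif (GAGGAAG) in 14.2% against 9.09%, and the NF-E2 or AP-1 motif (TGACTCA or TGAGTCA) in 4.90% against 2.02%. Over the whole list the E-box was in 58.8%, RUNX in 15.3%, the PU.1 type in 9.93% and NF-E2 or AP-1 in 6.00%. In distal regions these were in 69.5%, 21.4%, 10.5% and 9.27%. The composite was in 10.7% and the CACCC box in 33.3% of the whole list.

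The GC box, bound by SP1 and its relatives, was less common in members, at 35.3% against 65.3% (difference -30.0 points, -34.6 to -25.1). Among regions of like CG count around the summit the shares were closer, with 19.2% against 13.6% at 2 to 4 CG dinucleotides, 38.0% against 35.7% at 5 to 8 and 66.3% against 69.1% at 9 or more, and overlapping intervals. The NRF1 motif (GCGC, any base, then TGCGC) was in 1.23% against 9.01% and the YY1 motif (AAGATGG) in 2.70% against 6.39%. Both the GC box and the NRF1 motif contain CG, which the choice of CpG-poor promoters makes scarce. The ETS core was in 50.5% of members and 48.0% of the others (difference 2.53 points, -2.45 to 7.5), and CCAAT in 40% and 37.6% (2.36 points, -2.42 to 7.32). For these motifs the interval of the difference includes 0. A TATA box 20 to 45 bp before the main start was found for 15 members (3.68% against 1.19%, difference 2.48 points, 1.02 to 4.80). In the own lists of replicates 1 and 2 the share was 2.22% and 2.37%, against 1.08% and 1.12% of the others, and with summits within 500 bp of the start it was 2.07%. Only 6 of these had the summit within 200 bp of the start, and the strongest was Cryba4, a lens crystallin gene, at 19.5 with its summit 868 bp upstream. The next were Hba-a2 at 14.5, the serotonin enzyme gene Tph2 at 14.4 and the detoxifying enzyme gene Nqo1 at 14.4.

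**Figure D3:**
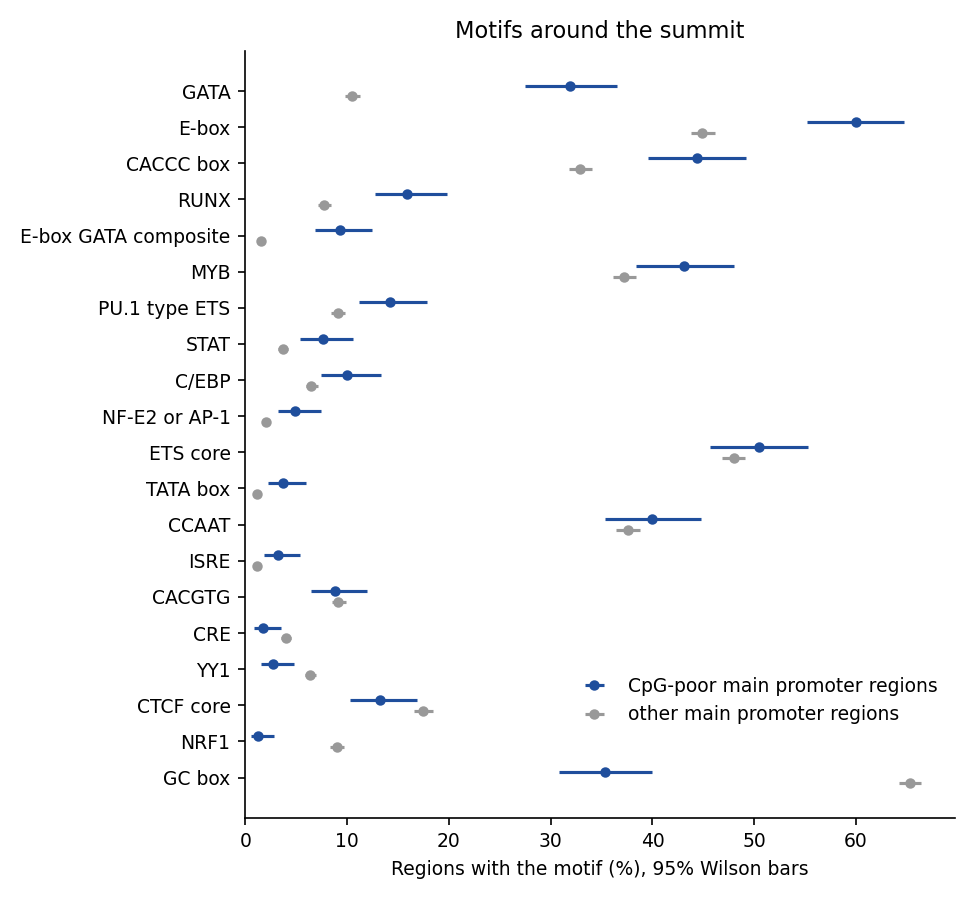
Share of regions (horizontal axis, %) with each motif from 100 bp before to 100 bp after the summit, and for the TATA box 20 to 45 bp before the start. Blue points are the 408 members and grey points the 6791 other main promoter regions, with 95% Wilson bars, and the widest gaps are GATA (31.9% against 10.5%) and the GC box (35.3% against 65.3%).

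The GATA share followed the CG content right at the summit. Members had a median of 5 CG dinucleotides around the summit, against 17 in other main promoter regions and 3 in distal regions. Among members with 0 or 1 CG, 51.1% of 45 had a GATA motif, and the share was 46.2% of 130 with 2 to 4, 27.9% of 129 with 5 to 8 and 10.6% of 104 with 9 or more. Other main promoter regions of the same local CG count had 45%, 37.1%, 26.1% and 8.52%, and the Wilson intervals of the classes overlapped at every step. At like local CG the difference in GATA share was thus smaller than the 21.3 points over all members. At 0 or 1 CG the median signal was 11.1 in members and 6.71 in the 20 others, and at 2 to 4 CG it was 9.93 against 7.29. At 5 to 8 CG it was 12.3 against 11.6, and at 9 or more 14.1 against 13.6. These steps were set after the data had been seen.

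**Figure D4:**
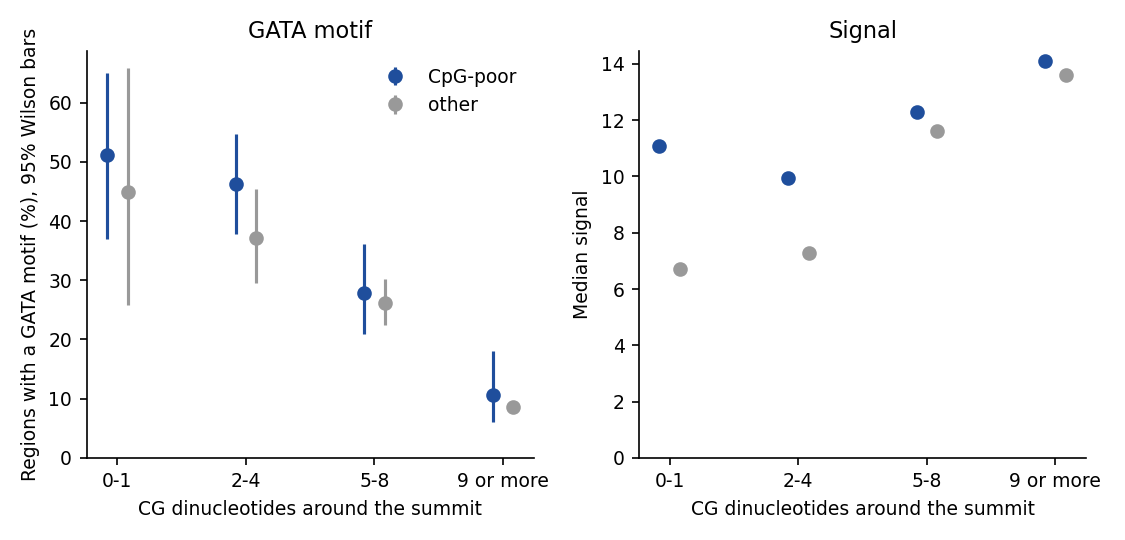
Left, share of regions with a GATA motif (vertical axis, %, 95% Wilson bars) and right, median signal, by the count of CG dinucleotides around the summit. Blue is CpG-poor main promoter regions and grey other main promoter regions, and the GATA share falls from 51.1% to 10.6% in members and from 45% to 8.52% in the others.

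Members with a GATA motif had lower signal than those without. The 130 members with the motif had a median signal of 10.1 and the 278 without it 12.6. Of the 204 members above the members' median, 48 had the motif, against 82 of the 204 at or below it. The share also depended on the ratio of the promoter, at 55.8% of the 43 members with a ratio below 0.15, 45.2% of 124 at 0.15 to 0.25 and 20.7% of 241 above, with median signals of 9.69, 11.2 and 12.3.

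CpG-poor main starts with and without a member could also be compared over the same window, 100 bp to either side of the start. The groups were not matched for total G and C content or for gene family. Those without a member included nearly all CpG-poor olfactory receptor genes and all vomeronasal ones. How far composition or family make-up shaped the differences below was not tested. The GATA motif was in like shares of both, at 25.9% of 390 starts with a member and 27.8% of 8183 without (difference -1.94 points, -6.15 to 2.73). By CpG ratio the shares were 42.9% against 33.2% below 0.15, 32.5% against 26.9% at 0.15 to 0.25 and 19.3% in both groups at 0.25 to 0.35, and each interval of the difference included 0. For scale, it was in 16.0% of all 21853 main promoters. The CACCC box was in 39.2% against 22.9% (difference 16.3 points, 11.5 to 21.3), the ETS core in 49.5% against 33.4% (16.1 points, 11 to 21.1), the GC box in 31.5% against 8.65% (22.9 points, 18.4 to 27.7) and CCAAT in 37.9% against 27.5% (10.4 points, 5.66 to 15.4). Over all main promoters these were in 27.3%, 38.1%, 40.6% and 28.0%. Over the same 3 ratio steps, lowest first, the CACCC difference was 33.2, 16.1 and 6.94 points. For the ETS core it was 28.5, 15.9 and 9.63 points, and for the GC box 7.29, 14.9 and 19.8 points. Each of these intervals excluded 0. CCAAT differed by -0.867 points (-12.4 to 14.2) below 0.15, then by 11.4 (3.13 to 20.4) and 12.7 (6.20 to 19.5). The composite was in 5.64% against 3.56% (2.08 points, 0.151 to 4.86), and by CpG ratio it was in 19% against 4.46% below 0.15 (14.6 points, 5.49 to 28.9), in 8.33% against 3.23% at 0.15 to 0.25 (5.11 points, 1.30 to 11.5) and in 1.75% against 2.41% at 0.25 to 0.35 (-0.656 points, -2.00 to 2.08). The TATA box was less common at starts with a member, at 3.59% against 8.88% (-5.29 points, -6.87 to -2.87), as was the C/EBP motif (TTGCNNAA or TTGTNNAA), at 10.5% against 16.1% (-5.58 points, -8.37 to -2.06). Starts with a member had higher ratios, and within each of the 3 ratio steps the intervals of the TATA and C/EBP differences included 0. The E-box was in 62.1% against 66.8% (-4.79 points, -9.81 to -0.00664), and by step its interval excluded 0 only at 0.25 to 0.35. The RUNX motif was in 12.6% against 15.6% and NF-E2 or AP-1 in 3.33% against 4.36%, both with 0 in the interval. The PU.1 type was in 16.2% against 11.1% (5.03 points, 1.64 to 9.07), and by step its interval excluded 0 only below 0.15.

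The red cell members had a lower and the Zfp members a higher median signal than the rest of the set, with overlapping ranges. The 27 red cell regions had a median signal of 7.93 (range 3.56 to 16.4), and the 32 zinc finger regions one of 16.2 (5.24 to 27.0), while the remaining 349 had 11.4. A GATA motif was in 19 of the red cell regions (70.4%, interval 51.5 to 84.1%), 7 of the zinc finger regions (21.9%) and 104 of the remaining (29.8%). The composite was in 44.4% and the CACCC box in 74.1% of the red cell regions. The ETS core was in 22 of the zinc finger regions (68.8%). Both libraries called 59.3% of the red cell, 90.6% of the zinc finger and 65.0% of the remaining regions. Distal regions within 50 kb averaged 2.59, 0.5 and 1.42, with the most at Inpp5b (8), Csf2rb2 (7) and Kcnn4 (7). The grouping was made after the data had been seen, and its differences were not tested.

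**Figure D5:**
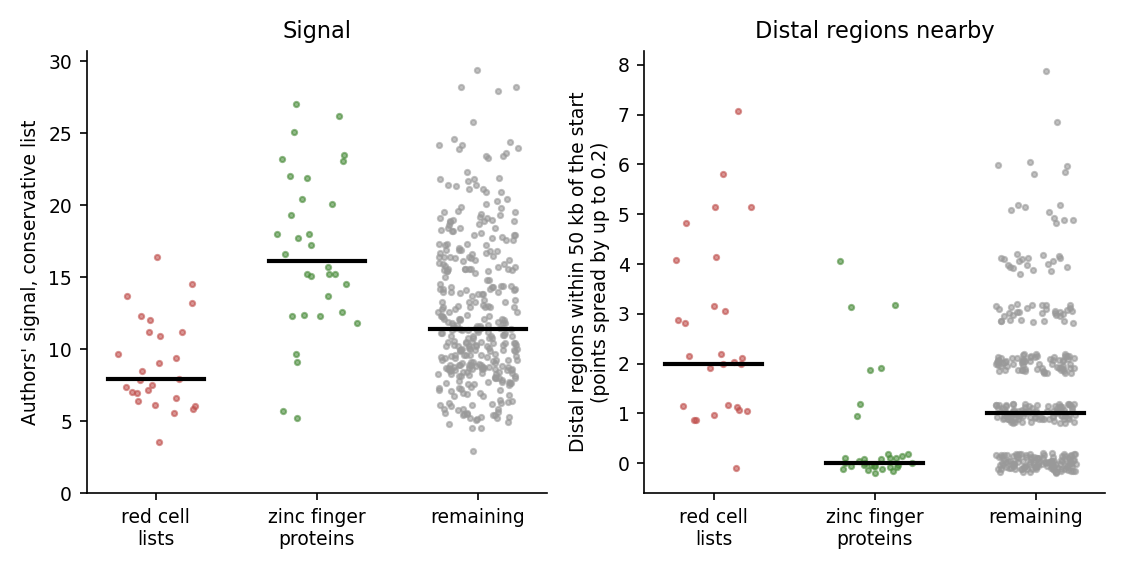
Authors' signal (left) and distal regions counted within 50 kb of each start (right) for each member, by group, with points spread sideways for legibility. Black bars are medians, at 7.93, 16.2 and 11.4 for signal and 2, 0 and 1 for distal regions.

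A small set carried the motif of interferon regulatory factors (GAAA, any 2 bases, then GAAA). It was in 13 members, or 3.19% against 1.18% of other main promoter regions. Within CpG-poor main promoters, over the window at the start, it was in 3.08% of those with a member and 2.68% of those without (0.401 points, -0.960 to 2.65). The 13 members included Trim21 at 27.9, Eif2ak2, which encodes the antiviral kinase PKR, at 20.3, Ifi27 at 16.4 and Oas1c at 15.6. Their median signal was 16.4, above the members' median of 11.5, and 11 were called in both libraries with 12 summits within 200 bp of the start. These members were singled out after their values were seen.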

How the data were processed

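ATAC-seq peak lists of 2 libraries of 1 group were analysed, on mm10 per the labels. Details were not given in the sources used here for the aligner, peak caller, read filters, shift of cut ends and versions, and read depth is unknown. Signal values are those the authors deposited for each peak. Their scaling is not given, and signal was used to describe and rank peaks within a list. Each deposited list also holds the authors' −log10 p per peak, and the deposited ranked lists the −log10 of the global irreproducible discovery rate (IDR), which was used for a stricter limit of 0.01.

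Overlapping peaks of the conservative list were merged, and the strongest gave the summit (29337 peaks, 20080 regions). Starts came from GENCODE M21 and bases from the RefSeq genome, GRCm38. Of 617 genes in 16 lists, 605 were found. The 20 motifs were patterns of letters. A library's value for a region is its strongest overlapping peak in that library's ranked list (406 and 404 of 408 members had one). Shares carry 95% Wilson intervals and differences Newcombe intervals (statsmodels 0.14.6). With 1 group there is no test between conditions. The functions were tested on simulated data.

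The members and lists were chosen with earlier results of these data known. Genes named were, by rule, the 12 strongest and 5 weakest members, those at the limits, up to 6 per gene list and 4 per family, those with most distal regions and the strongest in neither library's list. Some items that the rule names are not reported here. Beyond that rule, further red cell members and the next members with a TATA box are named, chosen after their values were seen. Alternatives changed the CpG limit and window, the distance, the start, the list, the libraries and the motif window.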

Additional observations from a re-analysis of the deposited data

How the results depend on the processing

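The number of members, 408, was 264 with a CpG ratio below 0.30, 783 in the looser replicated list and 232 among regions above the median signal of the list. The other 9 settings stayed within 1.5 times. The share of CpG-poor main promoters with a region, 4.55%, was 3.31% with a ratio below 0.30, 6.05% below 0.40, 3.75% with the ratio taken over 500 bp to either side, 3.90% with summits within 500 bp and also with an IDR of at most 0.01, 4.70% in the pooled list, 8.13% in the looser list and 2.68% above the median signal. Leaving out either replicate gave 3.52% to 3.73%. The difference in median signal, -1.86, was -2.46 and -1.09 with ratios below 0.30 and 0.40, -2.98 with the 500 bp window, -2.02 in the pooled list, -4.22 in the looser list, -1.17 at the stricter IDR and 0.0398 above the median signal, where both classes were selected on the value compared, so that its sign does not bear on the direction. Leaving out either replicate gave -1.35 to -1.21. The share called in both libraries, 66.7%, was 60.2% with the 500 bp window, 35.0% in the looser list, 77.8% at the stricter IDR and 88.4% above the median signal. The share within 200 bp, 72.8%, was 69.3% and 71.8% with ratios below 0.30 and 0.40, 58.9% with the 500 bp window, 87.9% with summits within 500 bp, 72.0% from the start of the gene record, 73.7% pooled, 62.2% looser, 75.2% at the stricter IDR and 78.4% above the median signal, and 74.0% to 74.8% without either replicate. The GATA share, 31.9%, was 41.7% and 27.6% with ratios below 0.30 and 0.40, 35.4% with the 500 bp window, 29.0% with summits within 500 bp, 37.5% looser, 25.9% above the median signal, 17.4% within 50 bp of the summit, 54.4% over the whole region, and 31.5% to 34.0% without either replicate. The TATA share, 3.68%, was 4.55% and 2.49% with ratios below 0.30 and 0.40, 3.82% with the 500 bp window, 2.07% with summits within 500 bp, 2.90% from the gene record, 2.33% pooled, 3.32% looser, 3.17% at the stricter IDR, 3.02% above the median signal, and 2.22% to 2.37% without either replicate. The causes of these shifts were not tested. No paired analysis was possible because both libraries belong to 1 group. Unknown read depth limits every statement that a region was not found.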
